A study of Homo sapiens with 2 samples.

Results

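The genes described here were 9 genes that respond to YAP or to transforming growth factor beta (TGF-beta), namely CCN1, CCN2, ANKRD1, AMOTL2, AJUBA, TGFB1, TGFB2, TGFBI and SKIL. They were taken by name, through the RefSeq transcript that each array probe was designed for, and each had 1 probe among the 50599 probes of the array. Of the 9 genes, 8 were well above background, and they stand among 23752 genes and unnamed transcripts that were. Expression was profiled on 1-color Agilent SurePrint G3 human arrays in HepG2, an established human hepatoma cell line. There was 1 array for cells given dimethyl sulfoxide (DMSO) and 1 for cells given hawk tea extract (HTE), each for 24 h. Both cultures were grown in high-glucose DMEM with 10% fetal bovine serum, penicillin and streptomycin. The dose is not settled, since 200 μg/mL stands in the sample labels, and 300 in the methods and in the name of the deposited HTE array. At the higher dose the paper reported a slight loss of cell viability. Whether this bore on the values here was not tested. With no replicate cultures, no test between HTE and DMSO was made, and array, culture and treatment cannot be told apart.

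YAP and its relative TAZ are coactivators that the LATS kinases of the Hippo pathway keep out of the nucleus. When they are not phosphorylated, they bind TEAD transcription factors and switch on genes such as CCN1, CCN2 and ANKRD1. TGF-beta ligands bind paired receptors that phosphorylate SMAD2 and SMAD3, which join SMAD4 and drive their own targets, among them SKIL and TGFBI. The pathways meet at CCN2, a matrix-associated protein that responds to both and is known for its part in liver fibrosis.

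The sequences upstream of CCN2 and ANKRD1 are shown because these well-known YAP targets held more than 1 copy of the TEAD-binding letters GGAATG, while their values on the arrays went apart. Each is the 250 bases before the RefSeq gene start in GRCh38.p14, read 5′ to 3′ on the strand of the gene (minus for both), at chr6:131951373-131951622 for CCN2 and chr10:90921088-90921337 for ANKRD1. The letters GGAATG are in capitals.
CCN2: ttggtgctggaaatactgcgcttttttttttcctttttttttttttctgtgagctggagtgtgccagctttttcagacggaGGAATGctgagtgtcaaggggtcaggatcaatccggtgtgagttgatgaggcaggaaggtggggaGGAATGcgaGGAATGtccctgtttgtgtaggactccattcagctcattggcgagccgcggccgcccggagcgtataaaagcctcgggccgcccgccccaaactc
ANKRD1: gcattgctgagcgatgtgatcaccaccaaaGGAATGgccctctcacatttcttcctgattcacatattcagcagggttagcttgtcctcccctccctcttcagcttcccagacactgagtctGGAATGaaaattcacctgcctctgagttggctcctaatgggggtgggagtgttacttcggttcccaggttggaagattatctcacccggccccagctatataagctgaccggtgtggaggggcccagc

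CCN2 held 3 copies of GGAATG, starting 169, 104 and 95 bases before the gene start, and ANKRD1 held 2, at 220 and 128 bases. Over both strands, 1 copy or more was found in 14.0% of the 35116 promoter windows of the same 300 bases (250 before and 50 after a start), 2 or more in 1.37% and 3 or more in 0.128%. RefSeq windows were found for 8 of the 9 genes, all but CCN1. Of the windows of AMOTL2, a single one held a copy, as did a single one of those of AJUBA and that of TGFB2, and those of TGFB1, TGFBI and SKIL held none. The short SMAD-binding letters CAGAC were found in CCN2, ANKRD1, AJUBA, TGFB2, SKIL and 1 of the windows of AMOTL2, and in 45.3% of all windows. In ANKRD1 a copy on the other strand shared its outermost base with the GGAATG at 128 bases. The AP-1 letters TGANTCA were in that of ANKRD1 alone (7.71% of all windows), and the CArG box, which serum response factor binds, was in none (1.29%). These matches describe letters in a window and not binding.

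The 2 arrays shared a slide and a scan. Of 58717 spots that are not controls, 60.6% on the DMSO array and 56.6% on the HTE array were well above background, and none was saturated. The values below are the processed signal, a background-subtracted intensity, with the error that the scanner software gives for it. For the log2 ratio of each measured member this error came to 0.20 or 0.21, nearly the same whatever the signal. For TGFB1 it was 0.20, where the SD among its replicate spots was 0.059. The software error is thus not a spread measured for each gene, and it does not hold the spread between cultures. Ratios are of HTE over DMSO on the log2 scale after each array was divided by its 75th percentile, which was 4020.0 on the DMSO array and 3570.3 on the HTE array. A gene was counted as risen or fallen from 2-fold on. The median SD of a log2 ratio was 0.051 among replicate spots (688 probes) and 0.16 among probes of a gene (3759 genes), and neither holds the spread between cultures. In such bulk RNA, fewer cells that express a gene and less RNA per cell cannot be told apart.

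CCN2 was the member that fell. Its signal was 5996 ± 599.7 (software error, as for all signals here) on the DMSO array and 1404 ± 142 on the HTE array, both far over a local background of 33 and 28. The log2 ratio was -1.92 ± 0.21, a 3.79-fold lower level, where the error is again that of the software. Among 21000 genes well above background on both arrays, this was the 37th lowest ratio. The value rests on 1 spot per array.

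CCN1, the close relative of CCN2 in the CCN family of matrix proteins, went the other way without reaching 2-fold. Its signal was 2712 ± 272 for DMSO and 3473 ± 348 for HTE, a log2 ratio of 0.53 ± 0.20. The ratios of CCN1 and CCN2 thus differed by 2.45 ± 0.29 on the log2 scale, 5.47-fold, and by 2.41 to 2.47 under 12 other ways of processing the arrays. A difference between genes of the same arrays does not depend on a scaling factor. Both genes had 1 spot, well above background and no outlier, so probe choices, dim-probe filters and outlier spots could not change it. Of the 12 ways, only quantile normalization and normexp background correction could.

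ANKRD1, an ankyrin repeat protein of muscle and a common readout of YAP, had nearly the same signal on both arrays, 6270.5 ± 627 for DMSO and 5944 ± 595 for HTE. Its log2 ratio was 0.09 ± 0.20, within the software error of 0. The ratio of ANKRD1 exceeded that of CCN2 by 2.02 ± 0.29.

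AMOTL2, an angiomotin that binds YAP and is itself a target of it, had signals of 13419 ± 1342 for DMSO and 9593 ± 959.5 for HTE. The log2 ratio was -0.31 ± 0.20. AJUBA, a LIM protein that restrains the LATS kinases, had 25763 ± 2576 and 16939 ± 1694, a log2 ratio of -0.43 ± 0.20. Both were lower on the HTE array by less than 2-fold. With the scaling used here, both falls were larger than the median SD among probes of a gene (0.16) and smaller than its 90th percentile (0.49). The rise of CCN1 (0.53) was larger than both falls and than that percentile. This order depended on the scaling. With scaling to the median, AJUBA was at -0.51, beyond 0.49, and CCN1 at 0.45, within it. Without scaling they were at -0.60 and 0.36. AMOTL2 stayed within it, at -0.39 and -0.48. These genes had a single probe each, so the SD among probes was measured on other genes. Of the 5 YAP-responsive genes, CCN2 alone passed 2-fold.

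**Figure D1:**
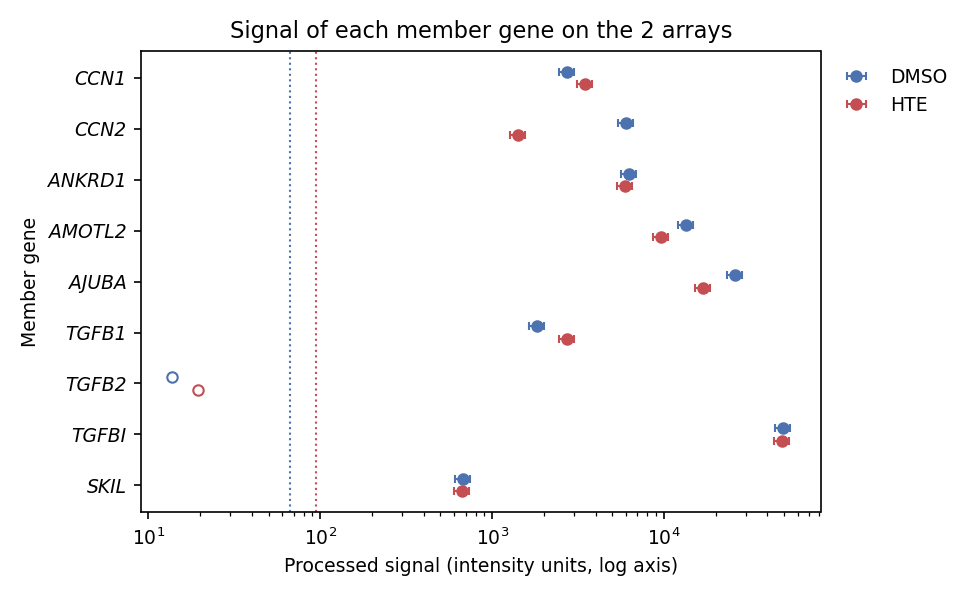
Processed signal (x axis, intensity units, log scale) of each member gene (y axis) on the DMSO array (blue) and the HTE array (red). Bars are the error of the scanner software, open points are not well above background, and dotted lines mark the lowest probe signal that was, 66.6 for DMSO and 94.6 for HTE. CCN2 drops from 5996 to 1404, whereas the points of ANKRD1, TGFBI and SKIL overlap between the arrays.

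Among the TGF-beta genes, TGFB1, which encodes the main TGF-beta ligand, had the highest log2 ratio of the 8 measured members, 0.76 (1.69-fold), below the 2-fold line. It is the member measured most often, with 10 replicate spots per array, of which 1 was left out as an outlier on the DMSO array. In the other 9, the signal ran from 1743 to 1966 (median 1780.4) for DMSO and from 2599.8 to 2779 (median 2753) for HTE, so the spots of the arrays did not overlap. The SD of the ratio over these 9 spots, on the log2 scale, was 0.059, with values from 0.66 to 0.83. These spots share 1 RNA sample per array and are not replicates of the treatment.

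**Figure D2:**
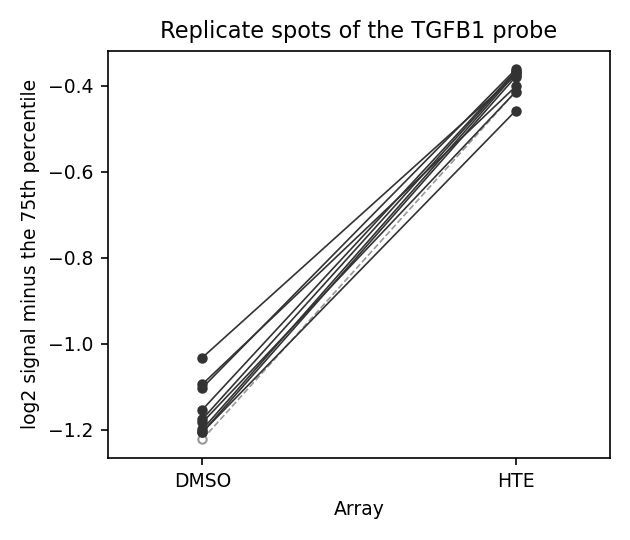
The 10 replicate spots of the TGFB1 probe on the DMSO and HTE arrays (x axis), as log2 signal minus the 75th percentile of the array (y axis). Each line joins the spots at the same position, and the dashed line is the position that the software marked as an outlier on the DMSO array. The joined spots differ by 0.66 to 0.83, and that position by 0.81.

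TGFB2, which encodes another TGF-beta ligand and is a YAP target in other cells, did not stand well above background on either array. Its signals were 13.7 ± 13.8 for DMSO and 19.5 ± 19.6 for HTE, and no fold is given. TGFBI, a secreted matrix protein named for its induction by TGF-beta, had signals of 48921 ± 4892 and 48806 ± 4881. The log2 ratio was 0.17 ± 0.20. SKIL, the SnoN repressor that SMADs induce and that blocks them in turn, had 674 ± 68.7 and 667 ± 69.4, a log2 ratio of 0.16 ± 0.21. The TGF-beta targets TGFBI and SKIL were thus each within the software error of no change, while the ratio of TGFB1 exceeded theirs by 0.59 ± 0.29 and 0.60 ± 0.29.

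Taking the 8 measured members, 1 fell at least 2-fold, where 3.03% of all 23752 genes did (720 genes), and none rose at least 2-fold, where 5.25% did (1248 genes). The ratios were above 0 for 5 and below 0 for 3. Of all genes measured on both arrays, 49.5% had a ratio above 0. The median of the members was 0.13, against -0.0049 for those genes, of which the middle 50% of ratios ran from -0.29 to 0.29. CCN1 and TGFB1 lay above this range, and CCN2, AJUBA and AMOTL2 below it. TGFB1 and CCN2 stood outermost, at the 1609th highest and the 37th lowest ratio of the 21000 genes.

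**Figure D3:**
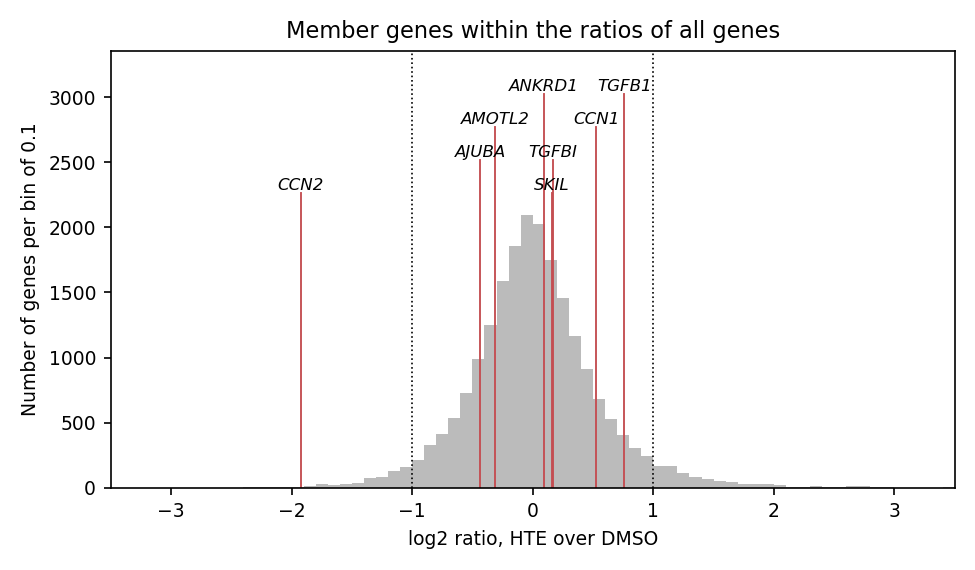
Histogram of log2 ratios, HTE over DMSO (x axis), for the 21000 genes well above background on both arrays (y axis, number of genes per bin of 0.1), with the 8 measured members as red lines. Dotted lines mark 2-fold. CCN2 at -1.92 is the only member beyond them.

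Directions near 0 depended on the scaling of the arrays. Without scaling, which puts the median gene at -0.16, ANKRD1 (-0.08), TGFBI (-0.0034) and SKIL (-0.014) crossed to below 0, and 42.2% of the genes past 2-fold were higher against 63.4% after scaling to the 75th percentile. Scaling to the E1A spike-in RNA put the median gene at -1.21 and left 0.870% of the changed genes higher. It put all 8 members below 0, from -0.46 for TGFB1 to -3.14 for CCN2. Since the median gene was at -0.16 without scaling, most of this shift came from E1A spots that were brighter on the HTE array. Why they were brighter was not tested. Scaling to the median, quantile normalization and normexp background correction changed no member's sign. In every one of these settings CCN2 had the lowest ratio of the members and TGFB1 the highest. Only quantile normalization and normexp correction could have changed this order, since the other scalings move all members by the same amount.

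**Figure D4:**
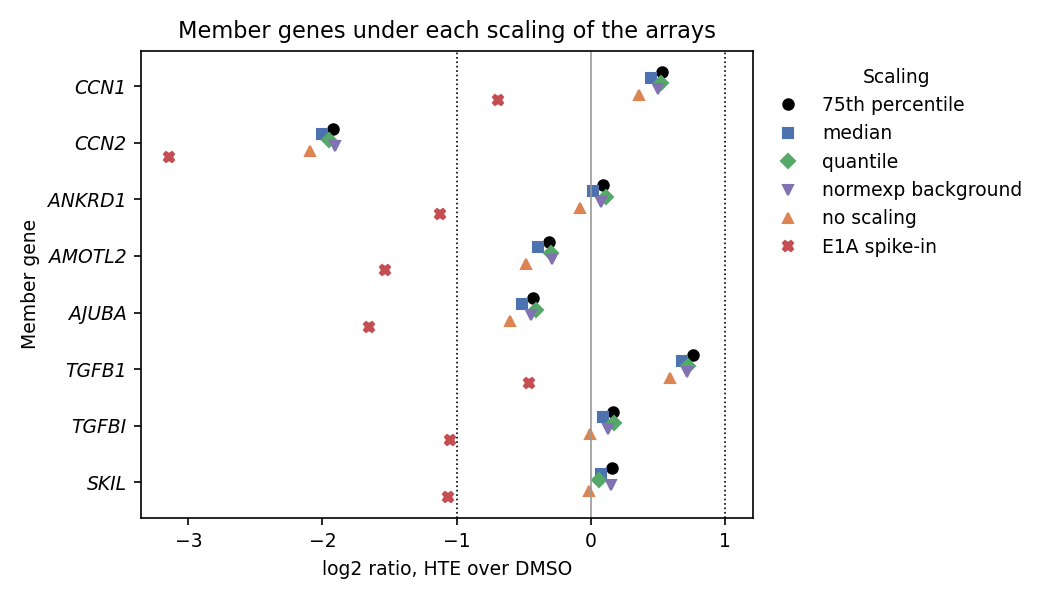
log2 ratio of HTE over DMSO (x axis) of the 8 measured members (y axis) under 6 scalings of the arrays, 1 marker each. Dotted lines mark 2-fold. The E1A spike-in moves all genes to the left. CCN2 is below the other members under each scaling, an order that only quantile normalization and normexp correction could change.

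Genes of the Hippo pathway were compared next. Their list holds YAP1, WWTR1 and the TEAD genes together with genes that restrain YAP, such as those of the LATS kinases. Its median and its counts are therefore not a measure of YAP activity. In a list of 20 genes of the Hippo pathway, all with a measured probe, the median log2 ratio was -0.08, with 9 genes higher and 11 lower. YAP1 itself had a log2 ratio of 0.42 (signals of 3496 and 4143), and WWTR1, which encodes TAZ, had -0.16 (7935 and 6312). All 4 TEAD genes were lower without reaching 2-fold, at -0.36 for TEAD1, -0.30 for TEAD2, -0.13 for TEAD3 and -0.51 for TEAD4, which was the lowest value of the list. VGLL4, which competes with YAP for the TEAD factors, had the highest ratio of those measured on both arrays, 0.76 (5961 and 8975), and 1.25 at its dimmer probe. LATS1 was the 1 gene of the list past 2-fold, at least 3.62-fold higher after scaling to the 75th percentile, with a signal of 214 for HTE and 29.0, not well above background, for DMSO. A dimmer LATS1 probe was too close to background on both arrays to be measured, so the call rests on 1 dim probe, and with normexp correction its log2 ratio was 1.11 (2.15-fold) in place of 1.85. YAP1, WWTR1 and the TEAD genes kept their sign without scaling, with scaling to the median, with quantile normalization and with normexp correction, whereas YAP1 was at -0.81 with the E1A spike-in.

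Of 17 other genes that YAP is known to drive, all measured on both arrays, 10 were higher and 7 lower, with a median of 0.15. Among them, 3 rose at least 2-fold, where 5.25% of all genes did. The 3 that rose were IGFBP3, which binds insulin-like growth factors, at 1.31 (signals of 173 and 382), CRIM1, a membrane protein that binds bone morphogenetic proteins (BMPs), at 1.31 (3392 and 7448), and NT5E, an enzyme that makes adenosine at the cell surface, at 1.06 (2111 and 3900.2). A dimmer NT5E probe gave 0.97. None fell 2-fold, where 3.03% of all genes did. The lowest was F3, the tissue factor that starts coagulation, at -0.92 (5791 and 2721).

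On the side of TGF-beta, 11 of 16 genes for ligands and their activation were measured, 8 of them higher and 3 lower, with a median of 0.14. With the dimmest measured probe of each gene, 5 were higher and 5 lower with a median of 0, and the probes of LTBP4 (0.53 against -0.41) and THBS1 (0.14 against -0.45) differed in sign. INHBE, which encodes the activin E subunit made by hepatocytes, rose 7.11-fold, from a signal of 651 to 4111 (log2 ratio of 2.83). It was the only gene of the list past 2-fold. The lowest was the ligand TGFB3 at -0.37 (769 and 530), the opposite side of 0 from TGFB1. INHBC, ITGB6, ITGB8, LRRC32 and NRROS were not well above background on either array.

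Of 18 receptors, SMADs and SMAD regulators, 16 were measured, 8 of them higher, 7 lower and 1 at a bound of 0, with a median of 0.01. ENG and ACVRL1 were not well above background. The ligand-binding receptor gene TGFBR2 had a log2 ratio of 0.06 and its partner TGFBR1 0.02, both of which lay below 0 without scaling. SMAD2 was lower (-0.68, signals of 578 and 321), SMAD3 higher (0.25) and SMAD4 lower (-0.22, with 0.08 at its dimmest probe), none past 2-fold. ACVR1, a receptor for BMPs and activins, rose 2.07-fold (1.05, signals of 1676 and 3085), with 1.34 at its dimmer probe. SMAD6, the inhibitory SMAD of BMP signaling, fell 2.26-fold (-1.18, 14446 and 5668). SMAD7, the inhibitory SMAD that TGF-beta induces against its own receptors, was at -0.89 (9663 and 4641).

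Among 20 further targets of TGF-beta, 9 were higher and 11 lower, with a median of -0.09. BHLHE40, a transcriptional repressor, rose 2.21-fold (1.15, signals of 4708 and 9249), and SMAD7 was the lowest. ID1, an inhibitor of differentiation that BMPs induce and a gene chosen for naming after its value was seen, was at -0.71 (54382 and 29521). Its relatives on the list were lower by less, ID2 at -0.19 (-0.34 at its dimmer probe) and ID3 at -0.14. The 5 lists share LATS2, PTPN14, SMAD7 and TGIF1. In the order given, 1 of 20, 3 of 17, 1 of 11, 1 of 16 and 1 of 20 genes rose 2-fold. Of all genes measured, 5.25% did. SMAD6 alone fell 2-fold, where 3.03% of all genes did. Without scaling the medians of the 5 lists were -0.25, -0.02, -0.03, -0.13 and -0.26 in the same order. NT5E, ACVR1 and BHLHE40 were then short of 2-fold. F3 (-1.09), SMAD7 (-1.06) and NUAK2 (-1.06), a kinase gene that YAP drives, were past it. With normexp correction ACVR1 (0.92) and IGFBP3 (0.99) were short of 2-fold, and with scaling to the median ACVR1 (0.97) and NT5E (0.98) were. With the E1A spike-in, the genes of these lists still above 0 were LATS1 (0.63), IGFBP3 (0.09), CRIM1 (0.08) and INHBE (1.61).

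**Figure D5:**
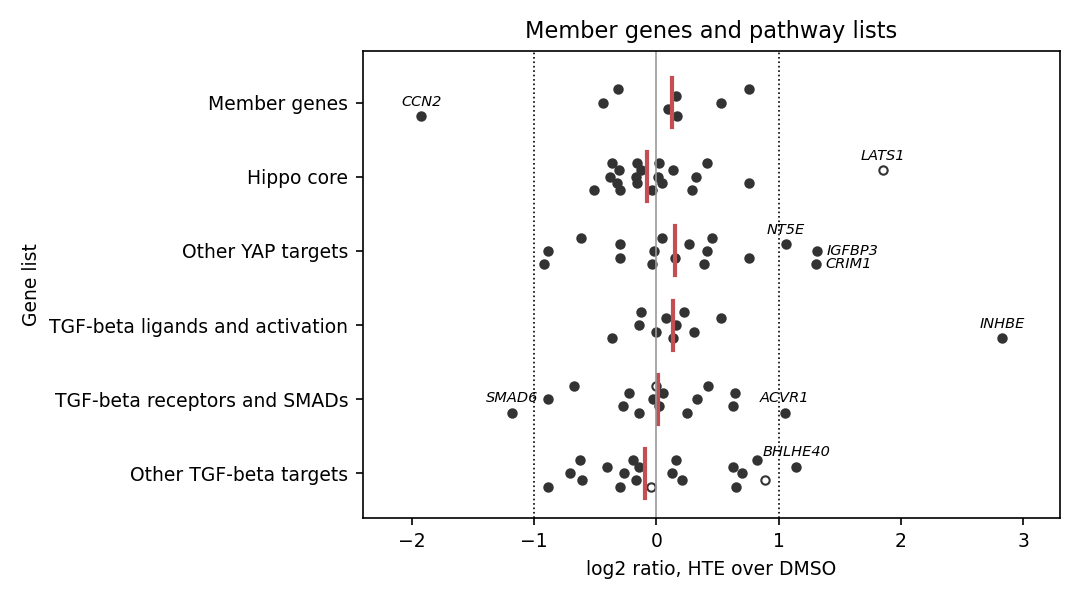
log2 ratio of HTE over DMSO (x axis) of the members and of the genes of 5 pathway lists (y axis), 1 point per gene, with the list's median as a red bar. Open points are bounds from genes well above background on 1 array, dotted lines mark 2-fold and genes beyond are named. The medians lie between -0.09 and 0.15, and CCN2 and SMAD6 are the named genes on the left.

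The cells carried the markers of their line, and some markers of other cell types as well. All 9 hepatocyte-lineage markers were measured on both arrays, with log2 ratios from -0.36 to 0.32 and none past 2-fold. Of 9 markers of stellate cells or fibroblasts, which make much of the CCN2 and matrix of a fibrotic liver, COL1A2, DCN, LUM, THY1 and POSTN were not well above background on either array, and COL3A1 only on the DMSO array. ACTA2 (0.17, signals of 19921 and 19844) and PDGFRB (0.17, 918 and 918) were measured on both, as was COL1A1 (-0.63, 454 and 261). Of 4 endothelial markers, CDH5 and KDR were not well above background, VWF was dim (182 and 104), and PECAM1 fell 3.52-fold (-1.82, 804 and 203), with a dimmer probe at least 3.28-fold lower. Of 4 leukocyte markers, CD68 (0.46, signals of 4138 and 5070) and PTPRC (0.14, 2351 and 2297, with -0.88 at a dimmer probe) were measured on both arrays. CD3E was not well above background and LYZ had no named probe. The RNA came from cultures of the HepG2 line and not from liver tissue, so these are values of that line. The cause of the lower CCN2 value was not tested.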

How the data were processed

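RNA of 1 DMSO-treated and 1 HTE-treated culture of HepG2 cells was labeled with Cy3 and hybridized to Agilent arrays. The authors deposited a Feature Extraction table per array, in which the processed signal is an intensity that their software had background-subtracted and detrended within the array, with no scaling between arrays. The software version is 11.5.1.1 per the file headers and 10.7 per the labels. Flags for background, saturation and outliers came from it too, and the methods name a 2-fold cutoff.

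Spots of controls and outliers were dropped, and the processed signal was put on the log2 scale relative to the 75th percentile of its array. Replicate spots were then averaged. A probe counted as measured on an array with 0.5 or more of its spots well above background. A probe measured on 1 array gave a bound, with the other array set to its lowest well-above-background signal or the probe's own, whichever was higher, and a bound under 1-fold was set to no change. RefSeq accessions without versions were looked up in the GRCh38.p14 gene table, which named 28174 of 50599 probes. A gene took its brightest probe. The array design names another build, so the coordinates given are those of the RefSeq promoter windows alone.

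The error of a signal is that of the software, and the error of a ratio combines both signals. Members and lists were chosen with earlier results of these data known. The genes named beside the members are the highest and lowest of each list, those past 2-fold, and YAP1, WWTR1, the TEAD genes, and the main TGF-beta receptors and SMADs. ID1, with ID2 and ID3 beside it, is outside this rule. Alternatives were normexp correction (offset 50, planned on the mean and run on the median signal), other scalings, filters on dim probes and choices of probe, and cutoffs of 1.5-fold and 3-fold. The E1A scaling used the spike-in probes measured on both arrays. In a simulated copy of the DMSO array with 200 of 23309 genes shifted by 1.5 (log2), all 200 were recovered with 0 others. The copy kept the flags of the DMSO array and had spot noise of only 0.1 (log2), so this recovery was all but certain. It checks the steps of the calculation and not how reliable a 2-fold call is between 2 cultures. The software was R 4.3.3, limma 3.58.1, Python 3.11.15, numpy 2.4.6, pandas 2.3.3 and matplotlib 3.10.9. Likeness of other genes to the members was not computed, since 2 arrays give 1 ratio per gene.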

Additional observations from a re-analysis of the deposited data

How the results depend on the processing

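The fall of CCN2 past 2-fold held under all 12 alternatives of processing, and under the 3-fold cutoff. Many of these could not change it. CCN2 had 1 probe with 1 spot, well above background on both arrays and no outlier. Filters on dim probes, choices of probe and the keeping of outlier spots thus left its value as it was. Scaling to the E1A spike-in moved most, with 6 members at least 2-fold lower, a member median of -1.10, and 142 higher and 16187 lower genes. The member median was 0.046 with scaling to the median and -0.045 without scaling, which gave 1209 lower genes. Normexp correction gave 825 higher and 468 lower genes, the own value of a dim probe 1320 lower, and no filter on dim probes 2390 higher and 1868 lower, with TGFB2 entering at 0.68. A 1.5-fold cutoff counted 1 member higher (TGFB1) with 2953 higher and 2505 lower genes, and a 3-fold cutoff 422 and 129 genes. The causes were not tested, apart from the cutoffs and scaling shifts, which act by construction. Each member had 1 probe, so the choice of probe changed no member, and keeping outlier spots moved none beyond the spread among replicate spots. The low signal of TGFB2 and LATS1 over background limits their values. No paired analysis was possible because there was 1 array per condition.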
